A study of Mus musculus with 12 samples.

Results

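The Msx and Dlx homeobox genes were followed in stem cells of the mouse. The 9 genes, Msx1, Msx2, Msx3 and Dlx1 to Dlx6, were taken by name from the 55401 genes of the count files, and all 9 were listed there. The samples were 3 lines of totipotent potential stem (TPS) cells and 3 lines of extended pluripotent stem (EPS) cells, each sequenced as 2 technical replicates, which gave 12 libraries. The labels place TPS cells in VCED medium and EPS cells in LCDM medium, both on feeder cells. The methods of the study, which call the TPS medium CPEC, list CD1530, a retinoic acid receptor gamma agonist, with VPA (inhibits histone deacetylases), EPZ004777 (inhibits DOT1L) and CHIR-99021 (inhibits GSK3), on inactivated mouse embryonic fibroblasts. The labels give no genotype, strain or transgene and do not say how each TPS line was started or whether lines of the same number are related. In the study, TPS lines were made from EPS or ES cells, or from embryos of B6-Tg mice, which carry tdTomato on a C57BL/6 background, and the labels do not say which applies to each line here. P-values here therefore measure the spread between lines.

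Msx and Dlx proteins are homeodomain transcription factors that bind short DNA sites with a TAAT core. Msx proteins act mainly as repressors and Dlx proteins mainly as activators, and the families can compete for the same sites and bind each other. Msx1 and Msx2 are well-known genes of the response to bone morphogenetic protein (BMP), and Dlx genes lie in the genome as pairs whose members face each other tail to tail. In the embryo they pattern the neural crest, branchial arches, limbs, teeth and skin, and Dlx3 is also needed in the placenta.

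The homeobox is what the 9 genes share, so the stretch that encodes the DNA-recognition helix is shown for 8 of them, to let their codons be compared. Each run has 51 bases of the coding strand, codons 42 to 58 of the 60-codon homeodomain, from the longest GENCODE M21 transcript holding it. Capitals mark the 18 bases of codons 48 to 53.
Msx2: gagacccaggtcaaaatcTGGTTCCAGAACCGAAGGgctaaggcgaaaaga
Msx3: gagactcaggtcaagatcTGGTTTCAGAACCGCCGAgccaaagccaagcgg
Dlx1: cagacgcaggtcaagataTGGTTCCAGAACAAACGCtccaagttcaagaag
Dlx2: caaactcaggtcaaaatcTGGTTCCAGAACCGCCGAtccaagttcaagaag
Dlx3: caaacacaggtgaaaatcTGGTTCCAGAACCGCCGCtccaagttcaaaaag
Dlx4: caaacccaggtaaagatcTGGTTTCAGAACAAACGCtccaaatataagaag
Dlx5: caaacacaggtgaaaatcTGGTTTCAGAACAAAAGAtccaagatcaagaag
Dlx6: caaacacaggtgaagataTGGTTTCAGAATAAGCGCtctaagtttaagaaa
Over the 180 bases of the homeobox, the 3 Msx pairs were 76.1% to 82.2% identical and the 15 Dlx pairs 66.1% to 81.7%. The 18 pairs of an Msx with a Dlx gene were 54.4% to 65.0% identical. In residues, Msx pairs shared 57 to 59 of 60, Dlx pairs 47 to 58, and mixed pairs 31 to 36. Between the longest transcripts of any 2 members, the longest identical run had 44 bases (Msx2 with Dlx6), shorter than the 100-base reads. Other transcripts of these genes were not compared.

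All 9 genes were low. Levels are given as counts per 1000000 (CPM) of the line's total after TMM correction for composition, with technical replicates summed. Msx1, Msx2, Dlx2 and Dlx3 had enough counts to be tested, and each was higher in TPS lines by edgeR's quasi-likelihood test at a Benjamini-Hochberg adjusted p under 0.05. No member was called lower. In bulk RNA, more cells that express a gene and more of its RNA per cell cannot be told apart. Of all 17468 tested genes, 14.4% were called higher and 7.34% lower. Msx2 and Dlx2 reached the cutoff for testing, about 0.280 CPM, in no EPS line, so they could be tested only because TPS lines were high, and the count of 4 carries no weight of its own. The other 5 members, Msx3, Dlx1, Dlx4, Dlx5 and Dlx6, did not pass the filter and are given as counts.

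**Figure D1:**
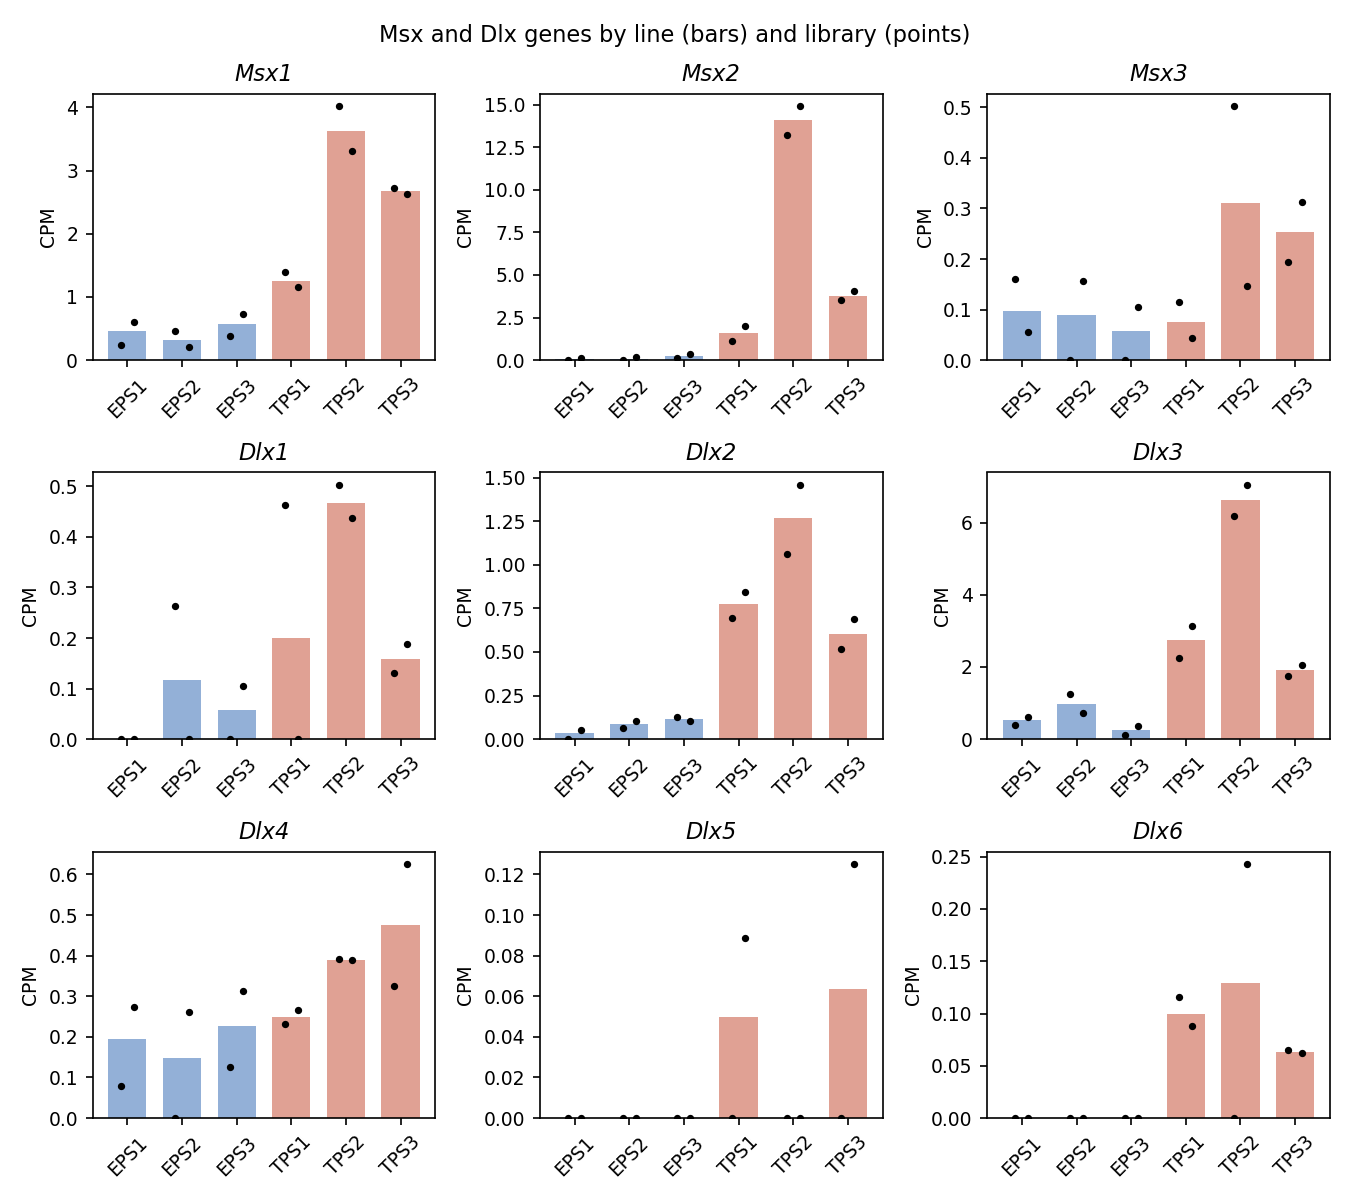
Level of each of the 9 genes in CPM (linear y axes from 0, each panel with its own scale). Bars are the 6 lines, with the 2 technical replicates summed, and points are the 12 libraries; EPS lines are blue and TPS lines red. Msx2 in TPS line 2 stood at 14.1 CPM, and the other 5 lines were at or under 3.78 CPM.

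Msx1, a repressor needed for teeth and palate (ENSMUSG00000048450, GRCm38 chr5:37820485-37824583, minus strand), stood at 1.25, 3.63 and 2.67 CPM in TPS lines 1, 2 and 3. In EPS lines 1, 2 and 3 it stood at 0.457, 0.324 and 0.569 CPM. The lines did not overlap, nor did the single libraries, and all 6 EPS libraries held counts. The mean was 2.52 ± 1.20 CPM in TPS lines and 0.450 ± 0.123 CPM in EPS lines (SD, n = 3 lines each). The log2 fold change was 2.47 (SE 0.51), a 5.55-fold difference, with an adjusted p of 0.0146 (edgeR). Without EPS line 2 the adjusted p was 0.0550.

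Msx2, its close relative in skull sutures, limbs and skin (ENSMUSG00000021469, chr13:53466884-53473074, minus strand), had the widest spread of the family. TPS lines 1, 2 and 3 held 64, 544 and 119 counts, or 1.60, 14.1 and 3.78 CPM. The EPS lines held 2, 3 and 9 counts, or 0.0653, 0.0883 and 0.256 CPM. The lines did not overlap, and the lowest TPS library (1.10 CPM) lay above the highest EPS library (0.365 CPM). TPS line 2 exceeded TPS line 1 by 8.82-fold and TPS line 3 by 3.73-fold. The mean was 6.49 ± 6.67 CPM against 0.137 ± 0.104 CPM (SD, n = 3 lines each), so the SD of the TPS lines was as large as their mean. The log2 fold change was 5.51 (SE 0.99, adjusted p = 0.00961, edgeR), or 45.7-fold. It was 4.24 without TPS line 2 (adjusted p = 0.0139) and 6.32 without EPS line 3. Summed over lines, 727 counts against 14 gave a ratio of 47.0 after scaling, with a 95% exact binomial interval of 27.9 to 86.5 that covers counting error only.

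Msx3, which in the embryo is a gene of the dorsal neural tube (ENSMUSG00000025469, chr7:140046157-140049089, minus strand), held 3, 12 and 8 counts in the TPS lines. It held 3, 3 and 2 counts in the EPS lines, and the groups overlapped at TPS line 1. The summed counts, 23 against 8, gave a ratio of 2.60 (95% counting interval 1.12 to 6.74). When every gene with a count was fitted without a filter, in which 10.1% of 32608 genes were called higher, its log2 fold change was 1.34 (adjusted p = 0.397, edgeR).

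Among the Dlx genes, Dlx3, an activator in epidermis and in the labyrinth of the placenta (ENSMUSG00000001510, chr11:95120119-95125296, plus strand), had the highest TPS mean, also per exon length. It stood at 2.75, 6.63 and 1.91 CPM in the TPS lines. EPS lines stood at 0.522, 0.971 and 0.256 CPM, and no library of one group overlapped the other (lowest TPS 1.75, highest EPS 1.25 CPM). Means were 3.76 ± 2.52 and 0.583 ± 0.361 CPM (SD, n = 3 lines each). The log2 fold change was 2.68 (SE 0.65), or 6.43-fold, with an adjusted p of 0.0260 (edgeR). This call was the least firm of the 4. It was lost without TPS line 2 (1.99, adjusted p = 0.0640), EPS line 1 (adjusted p = 0.0776) or EPS line 3 (adjusted p = 0.0614).

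Dlx4 (ENSMUSG00000020871, chr11:95140447-95146263, minus strand), the tail-to-tail partner of Dlx3, had few counts in either group. The TPS lines held 10, 15 and 15 counts (0.250 to 0.477 CPM) and the EPS lines 6, 5 and 8 (0.147 to 0.228 CPM). The lines did not overlap but the libraries did. The ratio of the summed counts, 40 against 19, was 1.91 (95% counting interval 1.08 to 3.49), and the fit without a filter gave 0.92 on the log2 scale (SE 0.69, adjusted p = 0.448, edgeR). The interval for Dlx3, 6.65 (5.05 to 8.91), did not meet that of Dlx4, which compares counts of these libraries and not lines.

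Dlx2, which with Dlx1 directs forebrain interneurons and the upper jaw (ENSMUSG00000023391, chr2:71543408-71546754, minus strand), held 31, 49 and 19 counts in the TPS lines, or 0.774, 1.27 and 0.604 CPM. The EPS lines held 1, 3 and 4 counts, or 0.0326, 0.0883 and 0.114 CPM. Neither lines nor libraries overlapped. Means were 0.883 ± 0.346 and 0.0783 ± 0.0415 CPM (SD, n = 3 lines each), and the log2 fold change was 3.42 (SE 0.58, adjusted p = 0.00818, edgeR), or 10.7-fold. It had the smallest adjusted p of the 4 genes. Since Dlx2 could be tested only because TPS lines were high, this rank carries no weight of its own.

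Dlx1 (ENSMUSG00000041911, chr2:71528113-71533981, plus strand), 9426 bases from Dlx2, held 8, 18 and 5 counts in the TPS lines and 0, 4 and 2 in the EPS lines. The lines did not overlap, by a margin of 0.159 against 0.118 CPM, and the libraries did. The summed counts, 31 against 6, gave a ratio of 4.68 (95% counting interval 1.92 to 13.7), and the fit without a filter gave 2.13 on the log2 scale (SE 0.96, adjusted p = 0.164, edgeR). The antisense gene Dlx1as shares 335 bases with Dlx1 exons, 6.2% of them, and held 26 counts in TPS lines and 14 in EPS lines. The library protocol describes no step that marks strand, so reads of the shared bases cannot be assigned to one gene.

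Dlx5 and Dlx6, genes of the lower jaw and of bone that lie 9236 bases apart on chromosome 6 (ENSMUSG00000029755, chr6:6877805-6882085, minus strand, and ENSMUSG00000029754, chr6:6863334-6868568, plus strand), were at the limit of detection. Dlx5 held 2, 0 and 2 counts in the TPS lines and none in the EPS lines, and no fold is given. Dlx6 held 4, 5 and 2 counts in the TPS lines and none in the EPS lines. Its 11 TPS counts were 3.32-fold a floor of 3 counts over the 3 EPS lines after scaling, and the 95% counting interval of the ratio starts at 2.27. The fit without a filter called neither Dlx5 (adjusted p = 0.340) nor Dlx6 (adjusted p = 0.0922, edgeR).

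Across the family, the TPS lines lay wholly above the EPS lines for 7 of 9 members (Msx3 and Dlx5 overlapped). These were the 4 tested members, with Dlx1, Dlx4 and Dlx6, which were not tested. Among all tested genes this held for 23.6%, a share that applies to the tested members only. Msx2 and Dlx2 could be tested only because TPS lines were high, so these counts carry no weight of their own. Each of the 4 tested members was most abundant in TPS line 2, and so were Msx3, Dlx1 and Dlx6. Among the 2509 genes called higher over the whole table, 45.8% were highest in TPS line 1, 31.6% in TPS line 2 and 22.6% in TPS line 3. For the 56 other genes called higher in the lists below, the shares were 39.3%, 44.6% and 16.1%. The summed level of the 9 members was 7.05, 26.9 and 9.98 CPM for TPS lines 1, 2 and 3, but 1.37 to 1.82 CPM for EPS lines. Among tested members, the excess in TPS line 2 over TPS line 1 was smaller outside Msx2, at 2.90-fold for Msx1, 2.41-fold for Dlx3 and 1.64-fold for Dlx2. Over TPS line 3 it was 3.73-fold for Msx2, 3.48-fold for Dlx3, 2.10-fold for Dlx2 and 1.36-fold for Msx1.

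To compare genes with each other, CPM was divided by exon length in kilobases. In TPS lines the order was Msx2 (1.98), Dlx3 (1.44), Msx1 (0.812) and Dlx2 (0.309 CPM per kb), and neighbours in that order overlapped between lines. A gap followed: the lowest TPS line of Dlx2 (0.211) lay above the highest of Dlx4 (0.146 CPM per kb). Below it came Dlx4, Msx3, Dlx1, Dlx6 and Dlx5, from 0.114 down to 0.0167 CPM per kb, each overlapping the next. In EPS lines Dlx3 (0.224) and Msx1 (0.145 CPM per kb) led and overlapped each other, and the other 7 were at or below 0.0582 CPM per kb. Among 32507 genes with a count and a length, Msx2 lay at percentile 66.6 in TPS lines and 36.0 in EPS lines, and Dlx2 at 50.0 and 32.0. Dlx3 moved from percentile 51.6 in EPS lines to 63.6 in TPS lines, and Msx1 from 47.8 to 58.7.

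Sequence directly before the start site is shown for Msx1 and Dlx2, called members whose window in the RefSeq promoter table (GRCm38.p6) lay outside their own exons. Of the 9 members 5 had an entry. The runs are the 250 bases before the RefSeq start, 5′ to 3′ on the gene's strand, at chr5:37824586-37824835 (minus) and chr2:71546755-71547004 (minus). Capitals mark, on either strand, the CCAAT box (letters CCAAT), the GC box (letters GGGCGG) and the BMP SMAD site (letters GGCGCC).
Msx1: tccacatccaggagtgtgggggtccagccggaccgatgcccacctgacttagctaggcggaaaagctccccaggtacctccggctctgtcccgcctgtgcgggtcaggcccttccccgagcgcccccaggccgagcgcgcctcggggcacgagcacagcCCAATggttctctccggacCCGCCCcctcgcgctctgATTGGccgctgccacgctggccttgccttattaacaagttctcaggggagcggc
Dlx2: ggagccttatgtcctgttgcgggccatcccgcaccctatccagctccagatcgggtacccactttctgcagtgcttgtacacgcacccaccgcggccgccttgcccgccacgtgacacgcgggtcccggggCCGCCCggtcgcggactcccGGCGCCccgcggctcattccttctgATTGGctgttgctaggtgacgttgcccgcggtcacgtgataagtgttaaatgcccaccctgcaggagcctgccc
Msx1 held CCAAT at 2 places and GGGCGG at 1, and Dlx2 held 1 place of each of the 3 motifs. Of 27025 promoter windows of that length, 34.5% held CCAAT, 32.9% GGGCGG and 9.5% GGCGCC. Neither window held TAATTG (7.3% of windows), TAATTA (4.9%), CTTTGA (14.0%), AGGTCA (13.8%) or TATAAA (13.0%), and these are matches of letters only. Both windows were rich in CpG, with 20 in Msx1 and 24 in Dlx2 against a median of 6, and with a GC content of 68.0% and 66.4% against a median of 52.0%.

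Of the genes beside the members, none outside the family was called. Within 10 kb, Metap1d next to Dlx1 had a log2 fold change of -0.33 (adjusted p = 0.458), Tubgcp2 near Msx3 of -0.30 (adjusted p = 0.153) and Zfp511 of -0.32 (adjusted p = 0.371, edgeR). Dlx4os, antisense to Dlx4 over 79 exon bases, held 0, 13 and 3 counts in TPS lines and 2 in each EPS line. Dlx6os1, Dlx6os2 and Gm44094 held 0 counts in every library. No other annotated gene lies within 10 kb of Msx1 or Msx2.

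BMP ligands, receptors and targets were counted next, as Msx genes are among the known targets. Of 26 listed genes 25 were tested, 4 were called higher and 1 lower, with a median log2 fold change of 0.43 beside -0.00 over all tested genes. The ligand Bmp2 stood at 1.15, 18.0 and 2.38 CPM in TPS lines 1, 2 and 3 and at 0.294, 0.265 and 0.768 CPM in the EPS lines (log2 fold change 4.00, SE 1.10, adjusted p = 0.0379, edgeR). Its order over the TPS lines was that of Msx2. The transducer Smad9 had a log2 fold change of 2.32 (adjusted p = 0.0488) and was highest in TPS line 1, at 2.65, 1.37 and 1.30 CPM over the TPS lines. The ligand Bmp6 was higher in TPS lines by 2.21 on the log2 scale (adjusted p = 0.00505), and the receptor gene Bmpr2 was the other call. Without EPS line 3, 2 of the list were called higher. Id4, of the Id family of BMP targets, fell by 1.99 on the log2 scale (adjusted p = 0.00861). Id1, the usual readout of BMP signalling, was at 20.0 ± 12.5 CPM in TPS and 6.53 ± 4.50 CPM in EPS lines (SD, n = 3 lines each; log2 fold change 1.62, adjusted p = 0.0878), and Bmp4 at 16.1 ± 12.9 and 14.3 ± 6.18 CPM (0.17, adjusted p = 0.871).

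A list of 24 other homeobox genes of the NKL class, to which Msx and Dlx belong, was counted too. It is a chosen subset of the class and holds no Nkx gene. Of 13 tested, 6 were called higher and 0 lower, with a median log2 fold change of 1.84. Lbx1, a gene of migrating muscle precursors, stood at 0.824, 1.74 and 0.445 CPM in the TPS lines against 0.0326, 0 and 0.0854 CPM in the EPS lines (log2 fold change 4.54, adjusted p = 0.0131, edgeR). Barx2 had a log2 fold change of 3.89 (adjusted p = 0.0221) and was also highest in TPS line 2, at 1.94 CPM. Lbx1, Barx2 and Dbx2 were near the limit of counting in EPS lines. Hhex, also called, held 198, 221 and 184 counts in EPS lines 1, 2 and 3. The 6 calls became 2 without EPS line 1, 1 without EPS line 2 and 3 without TPS line 3.

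Genes of branchial arch and skeletal mesenchyme, where Msx1, Msx2 and the Dlx genes act in the embryo, were called higher for 7 of 15 tested and lower for 0, with a median log2 fold change of 2.03. Prrx2, a homeobox gene of mesenchyme, stood at 3.82, 17.3 and 4.32 CPM in the TPS lines with 0.398 to 0.765 CPM in the EPS group (3.93 on the log2 scale, adjusted p = 0.00937, edgeR). Foxc1 followed with 2.41 (adjusted p = 0.0321). The remaining calls were Hand2, Foxc2, Prrx1, Twist1 and Runx2. Prrx1 stood at 109, 40.9 and 87.3 CPM and Runx2 at 4.07, 2.54 and 3.37 CPM in TPS lines 1, 2 and 3. Both were highest in TPS line 1 and lowest in TPS line 2, and the other called genes of the list were highest in TPS line 2. The 7 calls became 1 without EPS line 1, EPS line 2 or TPS line 3, and 3 without TPS line 2.

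Fibroblast genes moved with these genes, and the feeders named for TPS cells are embryonic fibroblasts. All 16 listed were tested and 11 were called higher, around a median of 2.10 on the log2 scale. Their summed level was 6323, 3511 and 3673 CPM in TPS lines 1, 2 and 3 and 333, 1294 and 1382 CPM in EPS lines 1, 2 and 3. Fap, a surface protease of activated fibroblasts, was at 0 counts in EPS line 1, and all 16 had counts in every other line. The 11 calls became 5 without TPS line 1 or EPS line 2, and 7 without TPS line 3. The sum was highest in TPS line 1, where Msx1 and Msx2 were lowest among TPS lines. Msx1, Msx2, Dlx2 and Dlx3 were highest in TPS line 2, where the sum was lowest but close to that of TPS line 3. Single markers split between those lines. Col1a1 stood at 1740 CPM in TPS line 2 and 1386 CPM in TPS line 3, but Pdgfra at 12.5 and 31.2 CPM. Dlx2 and Dlx3 were lowest in TPS line 3. In EPS lines 1, 2 and 3 the sum had the order of Msx2 (2, 3 and 9 counts) and Dlx2 (1, 3 and 4 counts), and Msx1 and Dlx3 had other orders. The part of feeder RNA in the difference between groups was not tested.

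**Figure D2:**
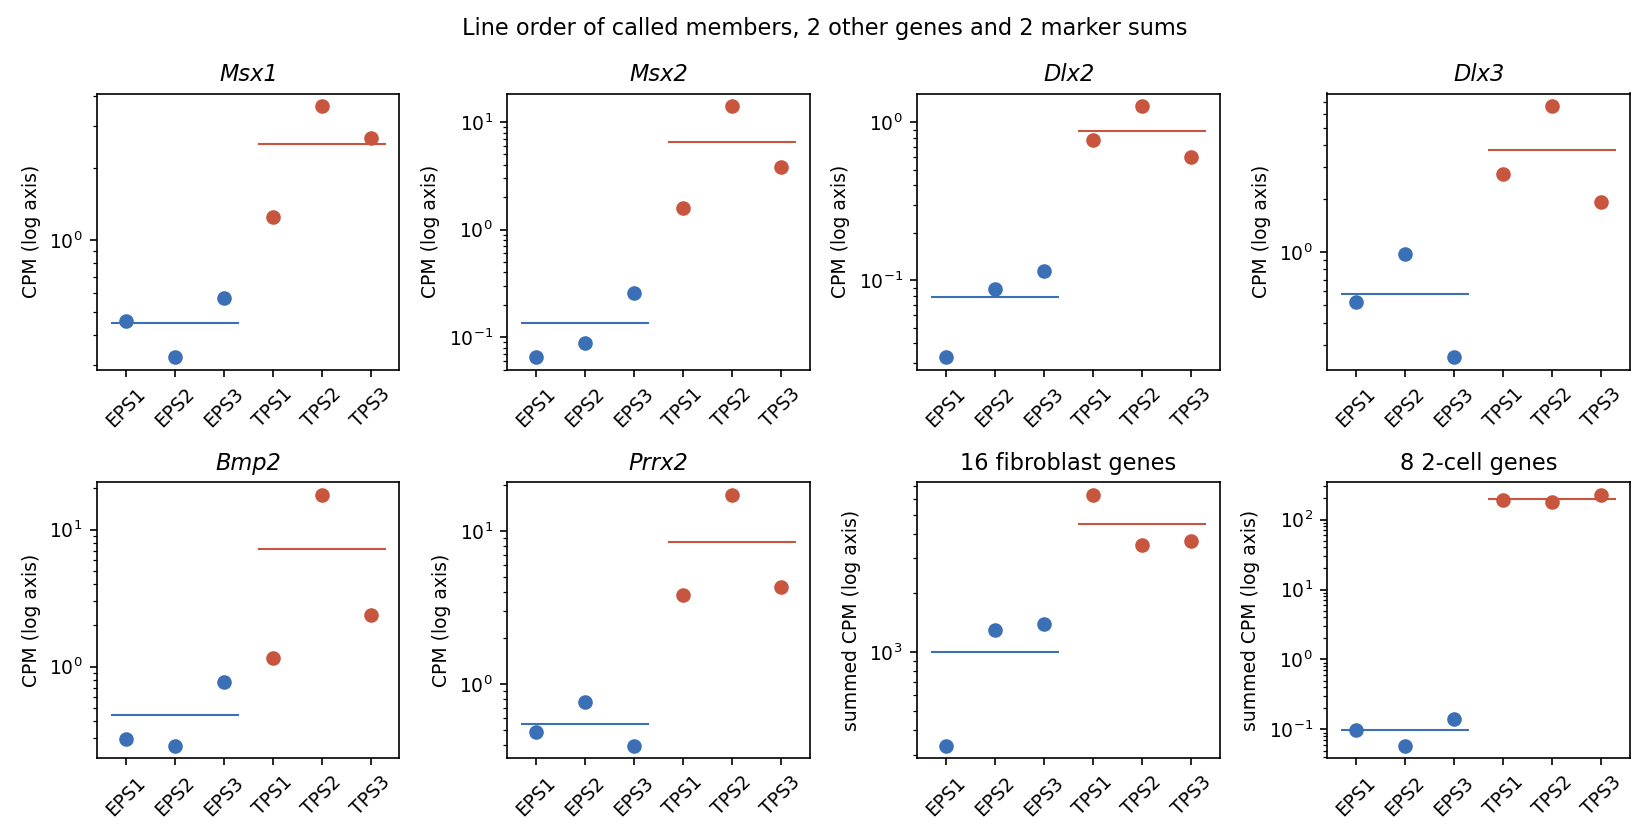
Levels by line for Msx1, Msx2, Dlx2, Dlx3, Bmp2 and Prrx2 (CPM) and for the sums of 16 fibroblast and 8 2-cell genes (summed CPM), all on log y axes. Each point is a line and each horizontal bar a group mean, EPS in blue and TPS in red. The 6 single genes were highest in TPS line 2 (Bmp2 at 18.0 CPM), and the fibroblast sum was highest in TPS line 1 (6323 CPM).

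Retinoic acid targets were examined because the TPS medium contains a retinoid receptor agonist. All 10 were tested, and 9 were called higher and 0 lower, with a median log2 fold change of 4.09. Stra8 ranged over 54.4 to 75.4 CPM in the TPS group, with 0.0854 to 0.359 CPM in the EPS group (7.98 on the log2 scale, adjusted p = 0.000152, edgeR). Rarb, the receptor gene that retinoic acid induces, stood at 0.999, 1.09 and 0.922 CPM in the TPS lines and at 0 counts in the EPS lines. The called targets did not share one order over the TPS lines. Cyp26a1, which breaks retinoic acid down, stood at 0.650, 4.59 and 1.87 CPM in TPS lines 1, 2 and 3, the order of Msx2, and Stra6 at 3.92, 7.85 and 5.94 CPM. Hoxb1 was highest in TPS line 3 (1.52, 13.0 and 18.2 CPM) and Cyp26b1 in TPS line 1 (20.0, 2.25 and 7.15 CPM).

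Placental trophoblast genes were counted because Dlx3 works there with Gcm1. Of 14 listed, 11 were tested, 4 were called higher and 0 lower, with a median log2 fold change of 1.38. The list was split: 6 of the 11 had a log2 fold change above 0. Gata2, Ascl2, Phlda2, Syna and Eomes lay below 0 without a call, Gata2 furthest (-1.49, adjusted p = 0.107, edgeR). Gcm1, the regulator of labyrinth branching, held 88, 64 and 37 counts in the TPS lines and 1, 0 and 0 in the EPS lines (adjusted p = 0.00261, edgeR). Its order over the TPS lines was not that of Dlx3, which was highest in TPS line 2. Cdx2 had a log2 fold change of 4.21 (adjusted p = 0.0448) and was highest in TPS line 3, at 9.37 CPM. The other calls had the line order of Dlx3: Gata3 stood at 2.00, 3.29 and 0.985 CPM in TPS lines 1, 2 and 3 and Peg10 at 652, 1285 and 490.1 CPM. Without TPS line 2, 1 gene was called higher and 1 lower.

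Forebrain GABAergic genes, the targets and partners of Dlx1 and Dlx2 in interneurons, were called in both directions. Of 14 listed, 6 were tested, and 1 was called higher and 1 lower, with a median log2 fold change of 0.76. Gad1, which makes the transmitter GABA and is a known Dlx target, was lower in TPS lines, at 1.47, 2.62 and 1.21 CPM against 12.1, 17.0 and 4.78 CPM (-2.67 on the log2 scale, adjusted p = 0.0132, edgeR). Sp9, an interneuron factor, was higher, at 0.824 to 1.06 CPM against 0.0854 to 0.265 CPM (2.55, adjusted p = 0.0133). Without EPS line 3, 2 genes were called higher. Without the filter on low counts, 2 were called higher.

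**Figure D3:**
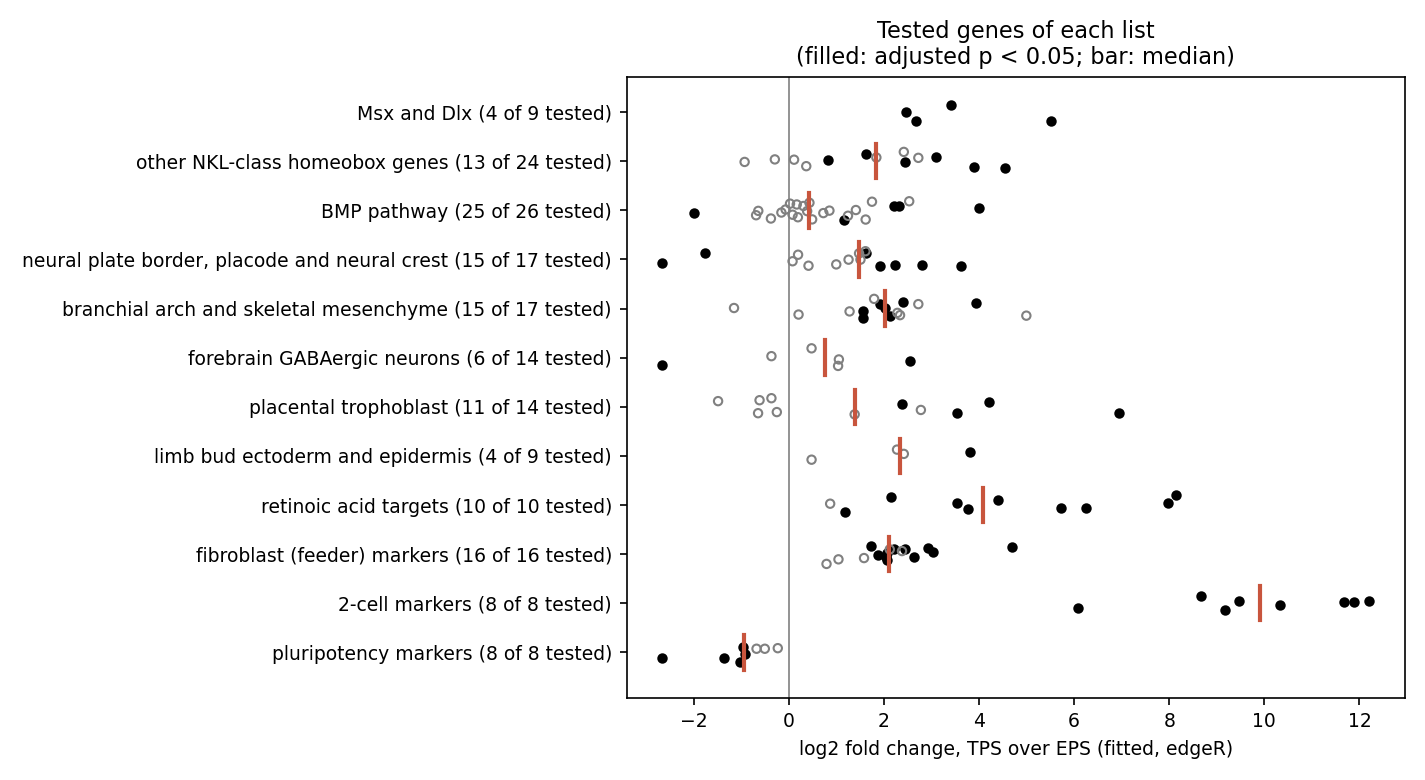
Fitted log2 fold change of TPS over EPS lines (x axis) for the tested genes of each list (rows). Filled points had an adjusted p under 0.05 in edgeR, open points did not, and red bars are list medians, drawn for every list but Msx and Dlx. The 4 tested members lie between 2.47 and 5.51, retinoic acid targets have a median of 4.09, and values of genes with nearly no EPS counts, such as the 2-cell genes, depend on the prior count and are no bounds.

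Members resembled each other over the 6 lines. On log2(CPM + 1), Pearson's r was 0.975 for Msx1 with Msx2 and 0.959 for Dlx2 with Dlx3, and the other 4 pairs lay between 0.853 and 0.941. These points share 2 groups that differ in level, and r does not depend on the size of a difference. A gene that differs in the same direction can therefore score high even if its difference is small. The r exceeded 0.9 for 441 (Dlx3) to 940 (Dlx2) of about 14594 genes with a mean of at least 1 CPM. The genes most like Msx1 were Foxa1 and Hoxd9 (both r = 0.998), and those most like Msx2 were Maml3 and Cx3cl1 (both 0.998). For Dlx2 they were Rab11fip1 (0.999) and St3gal5 (0.998), and for Dlx3 Pacs1 (0.996) and Fbxl8 (0.994), all over n = 6 lines and as a description. Rab11fip1 had a log2 fold change of 0.54, and Pacs1 and Fbxl8 were not called (adjusted p = 0.0777 and 0.119, edgeR).

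Libraries held 13676051 to 21821707 counts and summed lines 29877215 to 38466294. Labels and markers went together: the summed level of 8 2-cell genes, Zscan4c among them, ran from 178 to 228 CPM in the TPS group but only from 0.0589 to 0.142 CPM in the EPS group, and that of 8 pluripotency genes was 3284 to 3741 against 6037 to 8080 CPM. The 8 2-cell genes were all called higher, and 5 pluripotency genes, Pou5f1 and Klf4 included, were called lower (3 without TPS line 1). All 8 2-cell genes lay under the cutoff for testing in every EPS line. They could be tested only because TPS lines were high, so their count of calls carries no weight of its own. With library size alone as the scale, the whole table shifted to a median of 0.14 (log2), and 80.0% of calls were higher in place of 66.2%. Msx1, Msx2, Dlx2 and Dlx3 were called higher on that scale too.

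**Figure D4:**
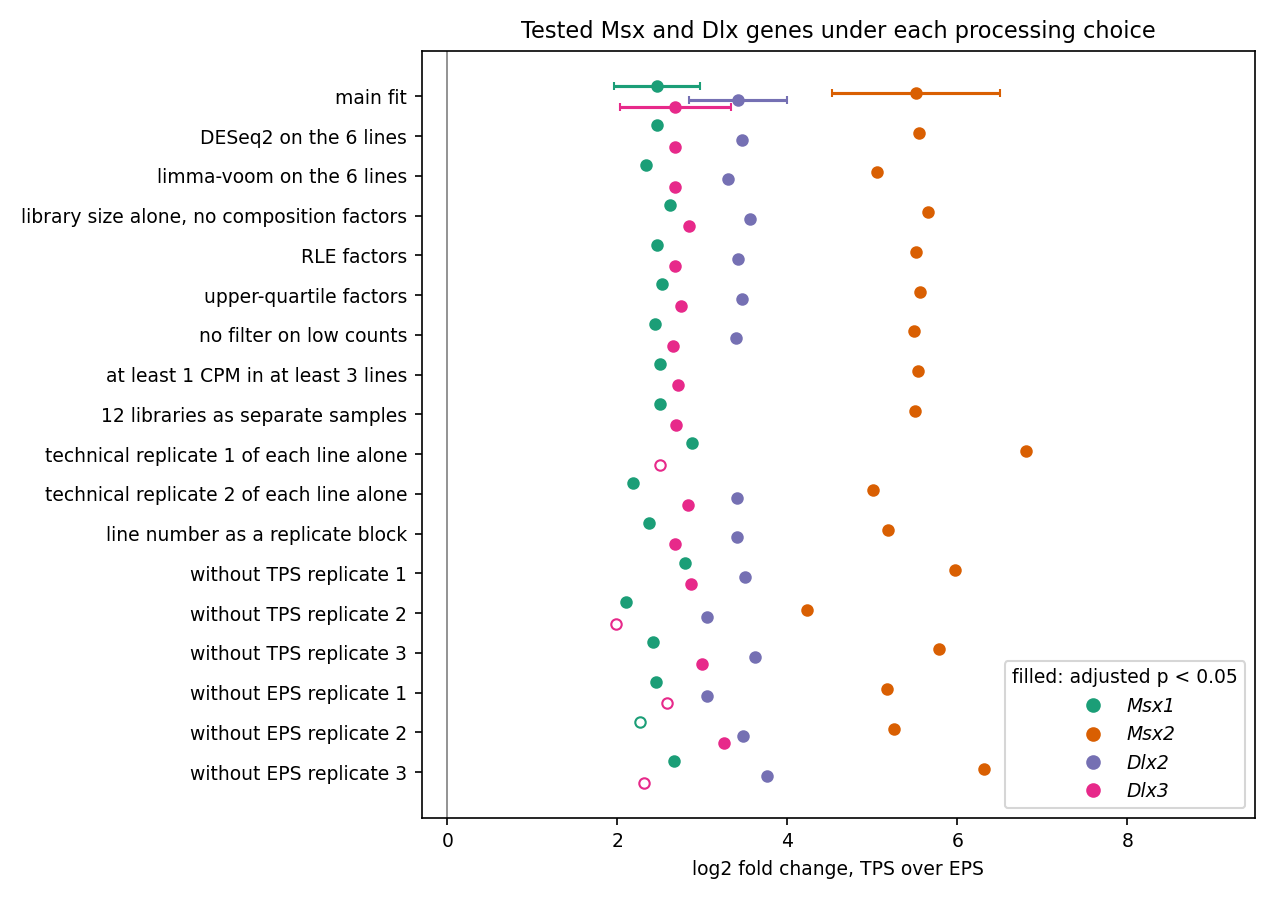
Log2 fold change of TPS over EPS lines (x axis) for Msx1, Msx2, Dlx2 and Dlx3 under the main fit, with bars of 1 SE, and under each other processing choice (rows). Filled points had an adjusted p under 0.05. Every value is above 0, Msx2 ranged from 4.24 to 6.80, and open points are Dlx3 in 4 choices and Msx1 in 1; Dlx2 has no point where it did not pass the filter.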

How the data were processed

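Libraries of mRNA captured on oligo(dT) were read from both ends at 100 bases. Per the labels, fastp 0.19.7 and STAR 2.7.3a were used on the mouse build mm10 (GRCm38). The authors deposited whole-number counts per gene and library, with no normalization; the counting tool, annotation release and strand setting are not given in the sources used here. Identifiers were matched without version to GENCODE M21 (55141 of 55401 genes). Counts of the 2 technical replicates were summed, and the comparison of 3 TPS against 3 EPS lines used edgeR's quasi-likelihood test (edgeR 4.0.16, R 4.3.3) with TMM factors and filterByExpr (minimum count 10, total 15). P-values were adjusted by Benjamini-Hochberg over 17468 genes. Depth was 13676051 to 21821707 counts per library, so 3 counts, the floor used for genes at 0, were 0.133 to 0.239 CPM in single libraries; intervals and floors cover counting error only, since PCR copies were not removed by molecular identifiers and reads are not independent. Between technical replicates, chi-square per degree of freedom was 2.68 to 24.3, so no pair agreed within sampling noise.

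The members and gene lists were chosen with earlier results of these data known. Named genes were all 9 members, annotated genes within 10 kb, up to 2 called genes with the largest rise and 2 with the largest fall in each list, and for each tested member the 2 genes of highest Pearson r. Bmp6, Bmpr2, Bmp4, Id1 and other genes outside that rule were chosen after their values were seen. Alternatives were DESeq2 1.42.0, voom in limma 3.58.1, other scalings and filters, single technical replicates, 12 libraries, a line block, a threshold of 0.01 and leaving out each line. The test was tried on simulated data first. The homeobox stretch of 1 member is not reported here.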

Additional observations from a re-analysis of the deposited data

How the results depend on the processing

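Over 12 other processing choices and 6 left-out lines, Msx1, Msx2, Dlx2 and Dlx3 stayed higher in TPS lines wherever they were tested, and no member was called lower. The 4 calls fell to 2 with technical replicate 1 of each line alone, where Dlx2 was not tested and Dlx3 had an adjusted p of 0.0655, and to 2 at an adjusted p under 0.01, where Msx2 and Dlx2 remained. They fell to 3 with at least 1 CPM in 3 lines and with 12 libraries as samples, since Dlx2 did not pass those filters. Leaving out 1 line gave 3 to 4 calls. Msx2 kept its call in 18 of 18 alternatives and Dlx2 in 15 of 15, and Msx1 lost it in 2 and Dlx3 in 5 of 18. Msx2 and Dlx2 passed the main filter only through the TPS lines, so their kept calls carry no weight of their own. Dlx2 was not tested in the remaining alternatives. For TPS and EPS lines of the same number, the correlation between their deviations from the group means was 0.0240, -0.116 and 0.0423 for lines 1, 2 and 3. For lines of unlike number it ran from -0.244 to 0.231. Lines of shared origin need not keep their deviations in another medium, so these values cannot show whether line numbers pair the samples. With the number as a replicate block, 4 members were called (adjusted p from 0.0184 for Dlx3 to 0.0447 for Msx1, edgeR), and calls over all genes went from 2509 higher and 1282 lower to 1714 and 721.

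Whole-table calls were 3445 and 1664 with DESeq2, 2987 and 745 with library size alone, 4067 and 3610 with 12 libraries, 873 and 258 at 0.01, and 1617 to 2234 and 493 to 1047 with 1 line left out (fewest without TPS line 3). Counts called higher in the lists ranged, over 18 alternatives, from 0 to 8 for the 24 listed NKL-class genes, 1 to 12 for the BMP pathway and for mesenchyme, 0 to 8 for neural plate border, 1 to 7 for trophoblast, 0 to 2 for forebrain, 0 to 3 for limb ectoderm, 5 to 9 for retinoic acid targets and 2 to 14 for fibroblast genes. The cause of these shifts was not tested. In other lists too, some called genes lay under the cutoff for testing in every EPS line, Pax3, Eya2, Sp9, Gcm1 and Rarb among them. Counts that include such genes carry no weight of their own. Msx3, Dlx1, Dlx4, Dlx5 and Dlx6 did not pass the main filter, and the fit without a filter called none of them. Whether depth limited these members was not tested.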

Other observations

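In the embryo Msx1, Msx2 and several Dlx genes mark the neural plate border and the limb ectoderm. Of 17 genes of neural plate border, placode and neural crest, 15 were tested, 5 were called higher in TPS lines and 2 lower, with a median log2 fold change of 1.48. Pax3, a border and crest factor, stood at 0.375, 1.63 and 1.05 CPM in TPS lines 1, 2 and 3, the line order of Msx1, and at 0, 0.147 and 0.0854 CPM in the EPS lines (3.62 on the log2 scale, adjusted p = 0.0264, edgeR). Eya2, a placode cofactor, had a log2 fold change of 2.80 (adjusted p = 0.0147). Its relative Eya1 went the other way, at 3.10, 1.66 and 1.30 CPM against 15.3, 7.12 and 16.1 CPM (-2.66, adjusted p = 0.00853). Foxd3, a factor of neural crest that pluripotent cells also express, fell by 1.77 on the log2 scale (adjusted p = 0.0273), from 24.9 to 36.2 CPM in EPS lines to 5.21 to 16.4 CPM in TPS lines. Calls higher fell to 2 without EPS line 1, TPS line 2 or TPS line 3 and to 3 without EPS line 2 or EPS line 3, and calls lower to 1 without EPS line 1, EPS line 2, TPS line 1 or TPS line 2.

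Of 9 genes of limb bud ectoderm and epidermis 4 were tested and 1 was called higher. That gene was Fgf8, the growth factor of the limb's apical ridge, at 1.62, 10.8 and 7.18 CPM in TPS lines and 0.326, 0.618 and 0.427 CPM in EPS lines (3.82 on the log2 scale, adjusted p = 0.0109, edgeR). Its TPS lines stood in the order of Msx1 and Msx2, lowest in line 1 and highest in line 2. Without TPS line 2, 2 genes of that list were called higher.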
